A study of Mus musculus with 28 samples.

Results

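The 10 genes described here carry the main steps of antigen presentation by the major histocompatibility complex (MHC). They were taken by name from the deposited table of read counts, and all 10 were found among its 24391 gene symbols. H2-K1 and H2-D1 encode classical class I heavy chains, and B2m encodes beta-2 microglobulin, the light chain they share. Tap1 and Tap2 encode the subunits of the transporter that carries peptides into the endoplasmic reticulum for class I. H2-Aa, H2-Ab1 and H2-Eb1 encode class II chains, Cd74 encodes the invariant chain that guides class II to the endosome, and Ciita encodes the class II transactivator.

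Class I presents peptides from inside the cell and is found on most nucleated cells, whereas class II presents peptides taken up from outside and is largely restricted to antigen-presenting cells. In healthy brain, microglia carry little class II, while macrophages at the borders of the brain and dendritic cells can carry much more. Class I and class II genes share promoter elements, and interferons are known to raise both, the class II genes through Ciita.

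All mice had the genotype Cx3CR1-Cre/TRAPfl, home cage controls included, in which cells that express Cx3cr1 carry tagged ribosomes. These are mainly microglia in brain tissue, but border-associated macrophages and other myeloid cells express Cx3cr1 too. Motor cortex was taken from 7 mice kept in the home cage and from 7 mice that ran for 1 h on a rotarod, a rotating rod on which a mouse has to keep walking. Each mouse gave 1 library from TRAP, which purifies the tagged ribosomes with their mRNA, and 1 library from the total lysate, so that there were 28 libraries in 4 groups of 7. Each condition held 4 females and 3 males, with 4 mice in cohort 1 and 3 in cohort 2, and the labels also call the cohorts batches. Age is not given in the sources used here. Levels are CPM, counts scaled by the size of each library, which is its total count multiplied by a scaling factor of edgeR (TMM). The scaled totals are therefore not the same in every library. An adjusted p is from the edgeR quasi-likelihood test with Benjamini-Hochberg adjustment over all genes tested, called at 0.05.

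Libraries held between 70090518 and 241381845 counts. The 10 microglial markers were all higher in TRAP than in lysate, with a median log2 fold of 6.42, and all 8 neuronal, 6 astrocyte and 6 oligodendrocyte markers were lower. Y-linked levels lay on the labelled side in 24 of 28 libraries. The 4 others came from 2 run mice of cohort 2, labelled female 2 and male 1, so results are also given without those mice where that changed a call.

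RefSeq promoters of GRCm38.p6 matched 6 of the 10 members. Of these, 4 are printed here from base -160 to base -2 before the start of the transcript, 2 of class I and 2 of class II genes. The stretches of H2-D1 and Tap1 are not printed because they overlap an untranslated region of a transcript annotated by GENCODE. Capitals mark matches, on either strand, to 5 motifs that were chosen after the sequences were seen: GGGNNTTNC (part of a binding sequence like that of NF-kB), AANNGAAA (the core bound by interferon regulatory factors), CTNGCAAC (like the X1 box of class II promoters), TGACG (part of a cAMP response element) and CCAAT. Where marked matches touch or overlap they form 1 run of capitals.
H2-K1: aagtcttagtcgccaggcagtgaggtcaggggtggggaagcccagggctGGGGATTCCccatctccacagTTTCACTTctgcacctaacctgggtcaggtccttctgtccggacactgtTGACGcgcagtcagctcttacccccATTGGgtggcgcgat
B2m: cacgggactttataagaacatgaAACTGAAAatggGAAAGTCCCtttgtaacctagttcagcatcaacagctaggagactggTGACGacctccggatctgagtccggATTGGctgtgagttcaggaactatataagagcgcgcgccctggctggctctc
H2-Aa: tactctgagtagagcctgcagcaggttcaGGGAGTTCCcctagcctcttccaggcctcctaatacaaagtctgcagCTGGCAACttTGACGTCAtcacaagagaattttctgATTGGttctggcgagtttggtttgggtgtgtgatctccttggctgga
H2-Eb1: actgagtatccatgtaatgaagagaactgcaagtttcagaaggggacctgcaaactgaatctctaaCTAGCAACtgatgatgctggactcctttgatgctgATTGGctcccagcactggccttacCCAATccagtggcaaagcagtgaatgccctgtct

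The windows lie at chr17:34000349-34000507 on the minus strand for H2-K1, chr2:122147527-122147685 on the plus strand for B2m, chr17:34287825-34287983 on the minus strand for H2-Aa and chr17:34305707-34305865 on the plus strand for H2-Eb1. Over the 250 bases before the start, GGGNNTTNC was found in 4 of the 6 members and in 13.0% of 32817 promoters. AANNGAAA was found in H2-K1, H2-D1, B2m and H2-Aa (21.3% of promoters), in H2-Aa outside the printed stretch. CTNGCAAC was found in H2-Aa, H2-Eb1 and H2-D1, against 2.84% of promoters. TGACG was found in 5 members (17.7% of promoters) and CCAAT in all 6 (33.8%). For H2-D1 the 250 bases lie inside the gene as GENCODE annotates it, from position 35262730, so its matches are not upstream of that annotated start. A match describes these letters only, and no binding was measured.

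In the GENCODE annotation of GRCm38, 7 members lie on chromosome 17, within the MHC region, where Tap1, Tap2, H2-Ab1, H2-Aa and H2-Eb1 lie in this order between positions 34187553 and 34316674. B2m lies on chromosome 2 (122147686 to 122153083), Ciita on chromosome 16 (10480059 to 10528418) and Cd74 on chromosome 18 (60803848 to 60812652). All 10 are annotated as protein coding. Reads of some members can be hard to assign. Of the 50-base stretches of H2-D1, 12.8% also occur in another gene, H2-Q and H2-K1 among them, and for H2-K1 the share was 9.63%. For Tap2 it was 11.6%, with 698 exon bases shared with Gm15821 and Gm20496 on the opposite strand, Tap1 shares 212 exon bases with Psmb9, and Ciita shares 329 with Dexi. The sources used here give neither the strand setting of the counting nor its handling of reads with several matches. Counts of H2-K1 and H2-D1 are therefore uncertain through shared sequence, those of Tap1 and Ciita through overlap with a gene on the other strand, and those of Tap2 through both.

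Levels between genes were compared per length, as CPM per kilobase of exon (RPKM). In TRAP, B2m stood highest of the members at 4996 RPKM, which ranked 7 of 23306 genes, and it exceeded the next member in all 14 libraries. Cd74 followed at 289 RPKM, H2-D1 at 272 and H2-K1 at 163. Cd74 exceeded H2-D1 in only 5 of 14 libraries, 1 of 8 in cohort 1 and 4 of 6 in cohort 2. The levels of Cd74 and H2-D1 thus did not differ beyond their spread, while H2-D1 was above H2-K1 in all 14 libraries. H2-Ab1 reached 125 RPKM, H2-Eb1 44.4 and H2-Aa 36.9, and H2-Eb1 was above H2-Aa in 1 of 8 libraries of cohort 1 and in 6 of 6 of cohort 2. Tap2 stood at 24.0 RPKM, Tap1 at 5.21 and Ciita at 0.120, ranked 14138.

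In total lysate the order differed. B2m stood at 135 RPKM (rank 321), H2-D1 at 11.2 and H2-K1 at 5.56, all 3 of class I, and each exceeded the next member in all 14 libraries. Cd74, second in TRAP by its mean alone, came next at 2.81 RPKM. The class II chains stood between 0.57 RPKM for H2-Aa and 1.5 for H2-Ab1, and Tap2 was above H2-Ab1 in 2 of 8 libraries of cohort 1 and in 6 of 6 of cohort 2.

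**Figure D1:**
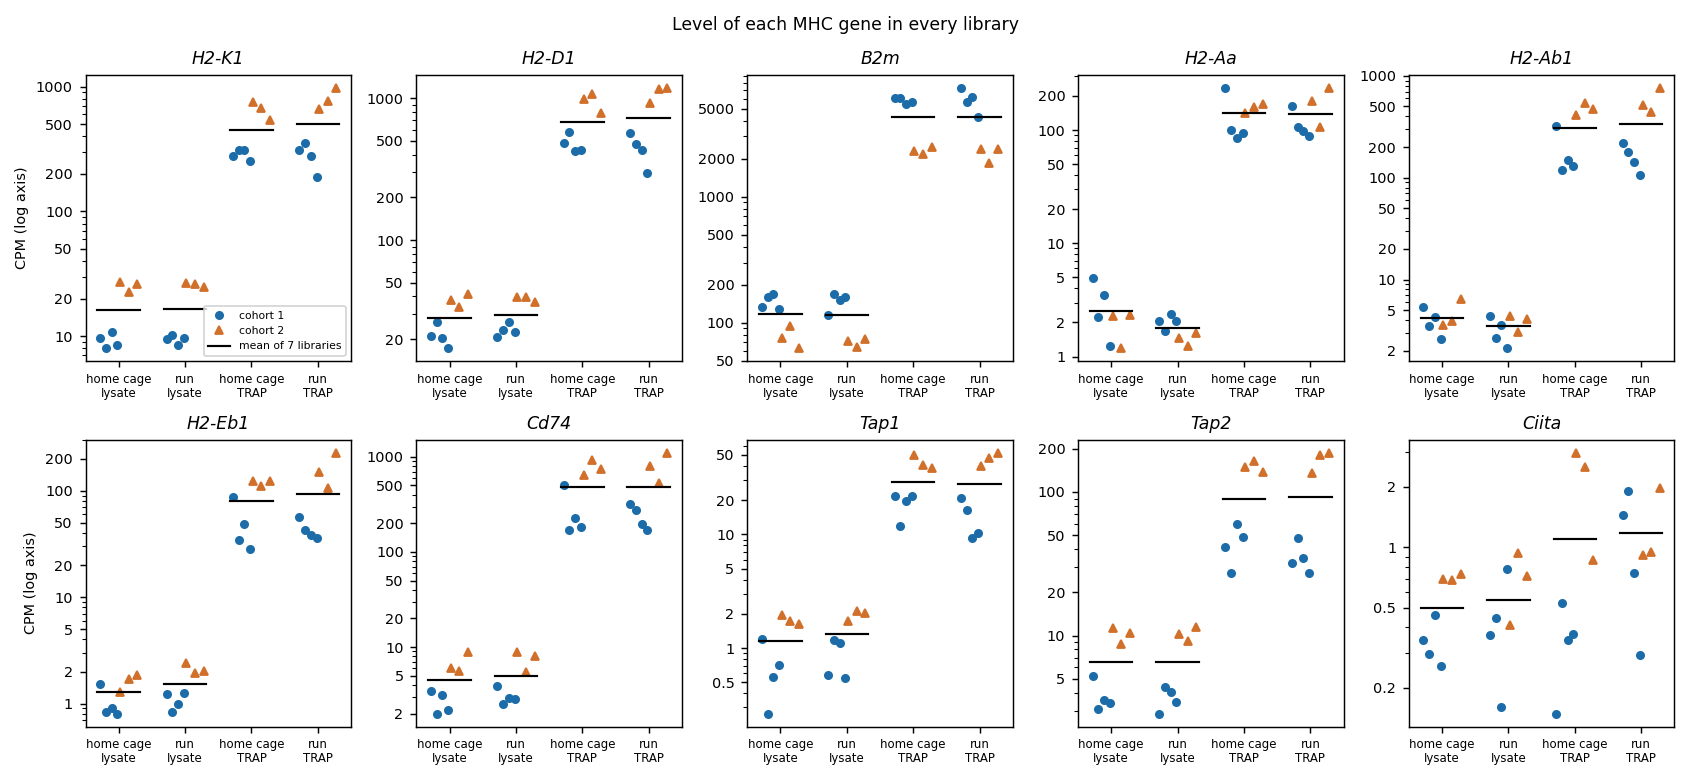
Level of each MHC gene in CPM on a log axis, 1 panel per gene, with 7 libraries in each of the 4 groups, circles for cohort 1, triangles for cohort 2 and a line at the mean of 7. For 9 genes every TRAP library lies above every lysate library, the exception being Ciita, and for most genes the cohorts lie apart within a fraction.

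The members were higher on the tagged ribosomes than in the whole tissue, clearly apart for 9 of them and with overlap for Ciita. Of the 10 members, 10 were called higher in TRAP than in lysate (edgeR), where 74% of 16716 genes tested were called, 34% as higher and 40.1% as lower. Their median log2 fold was 5.02, against -0.20 over all genes. For 9 of the 10 members, all 14 TRAP libraries lay above all 14 lysate libraries, in each cohort as well as over both, which held for 11.9% of genes tested. Ciita was the exception, and with the mouse as a block 9 members were called, without Ciita.

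The class II genes had the largest differences. Cd74 ran from 171 CPM through a median of 412 to 1100.2 CPM in TRAP and from 2.00 through 3.69 to 8.91 in lysate. No library overlapped, and its log2 fold was 6.62 ± 0.19 (SE, 14 libraries against 14), a 98.0-fold difference (edgeR adjusted p = 1.64e-23). H2-Ab1, the class II beta chain of the A molecule, ran from 106 to 767 CPM in TRAP and from 2.12 to 6.41 in lysate. Its log2 fold was 6.18 ± 0.25 (edgeR adjusted p = 4.94e-20). H2-Aa, the alpha chain that pairs with it, ran from 84.9 to 237 CPM against 1.19 to 4.96, a log2 fold of 6.05 ± 0.24. H2-Eb1, the beta chain of the E molecule, ran from 28.5 to 226 CPM against 0.807 to 2.39, a log2 fold of 5.80 ± 0.20. The lowest TRAP library of each class II gene was many times its highest lysate library.

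The class I light and heavy chains lay somewhat lower and closer together. B2m ran from 1849 CPM through a median of 4873 to 7330.3 CPM in TRAP and from 62.8 through 123 to 168 in lysate, with a log2 fold of 5.14 ± 0.10 (edgeR adjusted p = 1.82e-27). H2-K1 ran from 188 to 984 CPM against 8.01 to 27.4, a log2 fold of 4.89 ± 0.10. H2-D1 ran from 299 to 1190.2 CPM against 17.3 to 41.5, a log2 fold of 4.54 ± 0.11. The light chain and both heavy chains had standard errors below those of every class II gene. Of the transporter subunits, Tap1 ran from 9.30 to 52.0 CPM against 0.266 to 2.11, a log2 fold of 4.49 ± 0.19. Tap2 ran from 27.2 to 187 CPM against 2.86 to 11.5, a log2 fold of 3.65 ± 0.13.

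Ciita, the transactivator of class II, had the smallest difference and the widest scatter. It ran from 0.149 CPM through a median of 0.890 to 2.96 in TRAP and from 0.160 through 0.455 to 0.939 in lysate, so the fractions overlapped. Within mice its log2 ratio was above 0 in 11 of 14, 5 of 8 in cohort 1 and 6 of 6 in cohort 2. The log2 fold was 1.03 ± 0.37 (edgeR adjusted p = 0.0140). The call was lost with the mouse as a block (log2 fold 0.85, adjusted p = 0.0809), with a correction for GC content (0.79, adjusted p = 0.0555), in home cage libraries alone (0.71, adjusted p = 0.244) and in cohort 1 alone (0.68 ± 0.59, edgeR adjusted p = 0.324). Over all alternatives its adjusted p ran from 0.00340 to 0.324. Part of its exons overlap Dexi.

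**Figure D2:**
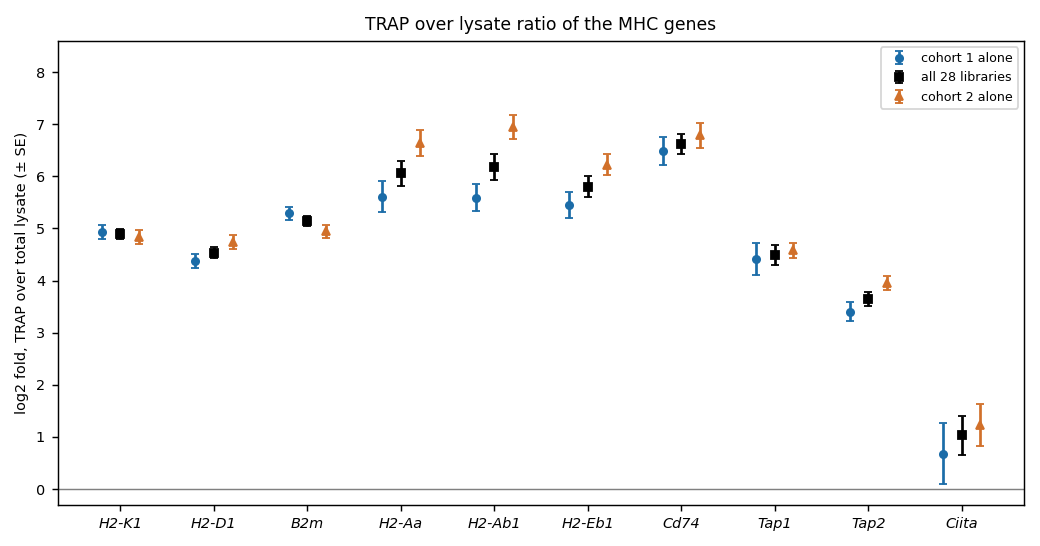
Log2 fold of TRAP over total lysate for each MHC gene with its standard error, from the fit to all 28 libraries (squares) and from cohort 1 (circles, 16 libraries) and cohort 2 (triangles, 12 libraries) alone. Cd74 is highest at 6.62 and Ciita lowest at 1.03, and for H2-Aa and H2-Ab1 the value of cohort 2 lies above that of cohort 1.

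The neighbouring steps of both pathways were also mostly higher in TRAP, where 34% of 16716 genes tested were called higher and 40.1% lower. Of 12 genes that supply and load class I peptides, 12 were called higher (edgeR), among them the immunoproteasome subunits Psmb8 (log2 fold 5.87) and Psmb9 (5.76) and the loading factor tapasin, Tapbp (3.73). Psmb9 shares exon bases with Tap1. Of 16 other class I and class I-like heavy chains, 12 passed the filter on low counts, and 8 of these were called higher and 1 lower. Hfe, which takes part in iron handling, had a log2 fold of 5.10, Fcgrt, the neonatal Fc receptor, 3.94, and Cd1d1, which presents lipids, 3.59. Of 15 genes of class II loading and processing, 14 passed the filter and 14 were called higher. H2-Oa and H2-Ob, which together restrain peptide exchange on class II, had log2 folds of 7.01 and 6.62, and Ctss, the protease that trims the invariant chain, 6.83.

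Genes of class II transcription were less uniform, with 5 of 7 called higher and 2 lower, beside 34% and 40.1% of genes tested. Nfya, a subunit of the factor that binds CCAAT, had a log2 fold of 3.13, and Rfxank and Rfx5, subunits of the RFX complex, 1.45 and 0.77. Of 8 costimulation genes, 7 passed the filter and 7 were called higher, with Cd48 at 5.53, Cd86 at 4.94 and the adhesion molecule Icam1 at 4.71. Of 13 genes of interferon signalling, 11 were called higher, with the transcription factor Irf8 at 6.07 and the receptor chains Ifngr1 at 4.64 and Ifnar2 at 3.65. Of 22 interferon-induced genes, 20 were called higher, with Bst2 at 5.69, Oas1a at 4.75 and Ifi27l2a at 4.29.

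Markers of other cells that carry MHC were higher in TRAP for some cell types and mixed for others. Over all genes tested, 34% were called higher and 40.1% lower. All 10 markers of border-associated macrophages were called higher in TRAP, with a median log2 fold of 6.09, and their summed level ran from 925 to 1877 CPM in TRAP and from 16.4 to 30.0 in lysate. Their defining markers Mrc1, Pf4 and Cd163 were above 0 in all 14 TRAP libraries, at medians of 274, 217 and 33.9 CPM. The summed level of the 10 microglial markers was 27573 ± 6268 CPM (SD, n = 14) in TRAP. The part of border-associated macrophages in the levels of the class II genes was not tested. Fewer cells of a type and less RNA per cell cannot be told apart in these bulk samples.

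Of 10 dendritic cell markers, 9 passed the filter and 7 were called higher, with a summed level of 91.2 to 215 CPM in TRAP and 8.67 to 20.2 in lysate. Of their defining markers, Flt3 (log2 fold -0.14, edgeR adjusted p = 0.476) and Zbtb46 (-0.61, edgeR adjusted p = 0.0528) were not called. Clec9a was called higher (log2 fold 2.58, edgeR adjusted p = 0.0290) at a median of 0.180 CPM in TRAP, and was at 0 in 4 of 14 TRAP and 7 of 14 lysate libraries. All 10 endothelial markers were called higher, with a median log2 fold of 2.21 and a summed level of 165 to 760 CPM in TRAP against 35.9 to 110.04 CPM in lysate. The summed level of 9 monocyte and neutrophil markers ran from 5.42 to 19.9 CPM in TRAP and from 0.872 to 7.04 in lysate, and of the 6 that passed the filter 3 were called higher and 1 lower. Of their defining markers, Ccr2 (log2 fold 5.93) was above 0 in all 14 TRAP libraries at a median of 5.60 CPM and Ly6c2 (3.63) was at 0 in 1, while S100a8 was called lower (-2.59, edgeR adjusted p = 0.00694) and was at 0 in 6. The B cell marker Ms4a1 was at 0 in 12 of 14 TRAP libraries, and nearly all of the summed B cell level in TRAP was Cd79b (49.0 of 49.3 CPM on average). Of the T and NK cell markers, 5 passed the filter and 2 of these were called higher (smallest edgeR adjusted p = 0.0346). Their defining marker Ncr1 was at 0 in 13 of 14 TRAP libraries, Cd3e in 9 and Cd3g in 7. The summed T and NK cell level ran from 13.0 to 33.4 CPM in TRAP and from 11.7 to 35.7 in lysate.

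The members also differed between the cohorts within each fraction. In TRAP, all 6 libraries of cohort 2 lay above all 8 of cohort 1 for 7 members, which held for 20.7% of genes tested, and below them for 1 member, which held for 17.1%. That member was B2m, at 5817 CPM in cohort 1 and 2268 in cohort 2. Tap2 had the largest ratio, with 39.8 CPM in cohort 1 and 159 in cohort 2, a 3.99-fold difference. Cd74 went from 256 to 791 CPM, H2-Ab1 from 171 to 524, H2-Eb1 from 46.3 to 139.6 and H2-K1 from 286 to 733. H2-Aa (121 and 165 CPM) and Ciita (0.726 and 1.70 CPM) overlapped between the cohorts.

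In lysate, 5 members lay wholly higher in cohort 2 (26.4% of genes tested) and 1, B2m, wholly lower (20.8%). B2m was at 148 CPM in cohort 1 and 73.8 in cohort 2, H2-K1 at 9.36 and 25.6, and Cd74 at 2.87 and 7.17. The class II chains overlapped between the cohorts there, with H2-Ab1 at 3.55 and 4.23 CPM and H2-Aa at 2.52 and 1.68.

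Over all genes, cohort differences moved with GC content, and among the members the ratios were lowest for B2m and H2-Aa. The longest transcript of B2m has the lowest GC content of the members, 41.2%, and that of H2-Aa the next lowest, 46.5%, while the other 8 lie between 51.8% and 57.3%. The log2 ratio of cohort 2 over cohort 1 in TRAP was -1.36 for B2m and 0.45 for H2-Aa, and between 1.14 and 2.00 for the other 8. In lysate it was -1.01 for B2m and -0.58 for H2-Aa. For the other 8 it ran there from 0.25 for H2-Ab1, the member of highest GC content, to 1.46 for Tap2. Over all genes tested with a GC content, its median in TRAP was -1.36 for the 1884 genes at 42% or less and 0.99 for the 4460 genes above 54%. In lysate these medians were -1.32 and 1.10. The part of GC content in the level of a single member was not tested. The cohort was a term in every main fit to both cohorts.

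**Figure D3:**
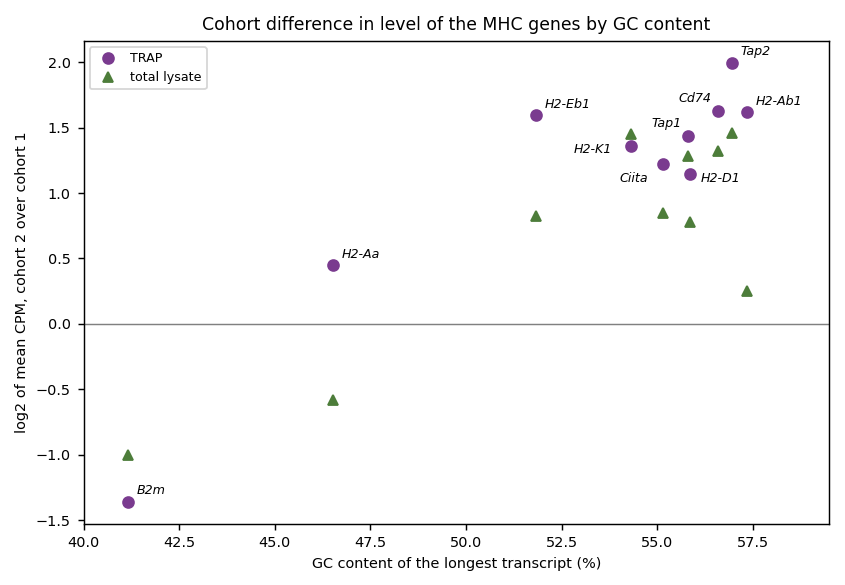
Log2 ratio of the mean CPM of cohort 2 over cohort 1 for each MHC gene (vertical axis) against the GC content of its longest transcript in percent (horizontal axis), with circles for TRAP (8 and 6 libraries) and triangles for total lysate (8 and 6 libraries). B2m, at 41.2% GC, lies at -1.36 in TRAP, and H2-Ab1, at 57.3%, lies at 1.62 in TRAP and 0.25 in lysate.

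The ratio of TRAP over lysate differed between the cohorts for 2 of the 10 members (edgeR), where 20.5% of 16716 genes were called, 8.56% as higher in cohort 2. Both were chains of the A molecule. H2-Ab1 had a log2 fold of 5.59 ± 0.27 in cohort 1 and 6.95 ± 0.23 in cohort 2, a difference of 1.37 ± 0.31 (edgeR adjusted p = 0.00217). For H2-Aa the log2 folds were 5.61 ± 0.30 and 6.63 ± 0.25, a difference of 1.04 ± 0.35 (edgeR adjusted p = 0.0347). With the mouse as a block 4 members were called, H2-Eb1 and Tap2 besides these. The call of H2-Aa was lost without the 2 mice whose Y-linked levels went against their labels (0.90, adjusted p = 0.140), while that of H2-Ab1 was kept (1.14, adjusted p = 0.0287). It was also lost on leaving out 1 mouse, for 7 of the 14 mice: female 2 or male 1 of the home cage group and male 1 or male 2 of the run group in cohort 1, and female 2 of the home cage group and female 1 or male 1 of the run group in cohort 2. Its adjusted p then lay between 0.0591 and 0.0965. With a correction for GC content both calls were kept, at 1.37 for H2-Ab1 and 1.06 for H2-Aa.

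For the other members the difference did not pass the test. It was 0.76 ± 0.30 for H2-Eb1 (edgeR adjusted p = 0.0663), 0.54 ± 0.22 for Tap2 (edgeR adjusted p = 0.0801) and 0.36 ± 0.17 for H2-D1 (edgeR adjusted p = 0.140), each higher in cohort 2. For B2m it was -0.35 ± 0.15 (edgeR adjusted p = 0.107), and it was called lower in cohort 2 on leaving out female 2 of the home cage group (-0.46, adjusted p = 0.0372) or male 2 of the run group (-0.43, adjusted p = 0.0456), both of cohort 1. On leaving out 1 mouse of the home cage group in cohort 1, H2-Eb1 was called without female 1 (0.85, adjusted p = 0.00668) and Tap2 without male 1 (0.66, adjusted p = 0.0260). Cd74, with log2 folds of 6.48 ± 0.26 and 6.78 ± 0.24, and H2-K1, with 4.93 ± 0.13 and 4.83 ± 0.14, differed by less than the sum of their errors.

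Within TRAP the class II genes kept close to one another from mouse to mouse. In cohort 1, Cd74 in the 4 home cage libraries was at 502, 171, 229 and 184 CPM, and H2-Ab1 in the same libraries was at 319.9, 119, 148 and 129.96 CPM. Female 1 of the home cage group was the high library for both, as it was for H2-Aa at 235 CPM and H2-Eb1 at 86.4, and female 1 of the run group came next in that cohort, at 322 CPM of Cd74. The summed dendritic cell markers were 152 CPM in the first of these libraries and 215 in the second, and those of border-associated macrophages 1470.2 and 1551 CPM, against ranges of 91.2 to 215 and 925 to 1877 over all TRAP libraries. Male 1 of the home cage group in cohort 1 had like sums, 151 and 1531 CPM, with Cd74 at 229 CPM, and female 2 of the run group in cohort 1 had the highest sum of border-associated macrophage markers, 1877 CPM, with Cd74 at 273 CPM. The part of these cells in the class II levels of single libraries was not tested. In cohort 2, the library labelled male 1 of the run group, from a mouse whose Y-linked levels went against its label, was highest, with 1100.2 CPM of Cd74, 767 of H2-Ab1, 237 of H2-Aa and 226 of H2-Eb1.

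After the mean of each cohort and condition was taken out, log2 CPM of Cd74 and H2-Ab1 had a Pearson correlation of 0.98 over the 14 TRAP libraries. It was 0.91 for Cd74 with H2-Aa and 0.91 with H2-Eb1. Both genes of a pair were read in the same libraries, and so share the purification and depth of each library. Among 12062 genes, the 5 most like Cd74 by this measure were H2-Ab1, H2-Aa, H2-Eb1, Cep85 and Pabpc1. The class I heavy chain H2-K1 had 0.31 with Cd74. Ciita had 0.08 with Cd74 and between -0.03 and 0.13 with the class II chains, but 0.88 with H2-K1 and 0.82 with H2-D1. H2-K1 was most like Oxa1l at 0.96, then Inadl, Zfp579, Serpinf1 and Lgals3bp, and with H2-D1 it had 0.81.

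The ratio of H2-Ab1 to Cd74 was alike in both cohorts in TRAP, while in lysate the cohorts lay apart. The log2 of H2-Ab1 over Cd74 was -0.58 ± 0.08 (SD, n = 8) in TRAP of cohort 1 and -0.59 ± 0.17 (SD, n = 6) in cohort 2. In lysate it was 0.28 ± 0.38 (SD, n = 8) and -0.77 ± 0.22 (SD, n = 6), and these ranges did not overlap. H2-Aa over Cd74 was -1.07 ± 0.22 in TRAP of cohort 1 and -2.26 ± 0.15 in cohort 2. In lysate H2-Aa over Cd74 was -0.28 ± 0.51 (SD, n = 8) in cohort 1 and -2.12 ± 0.40 (SD, n = 6) in cohort 2. The ratio of H2-Aa to Cd74 thus lay apart between the cohorts in both fractions.

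**Figure D4:**
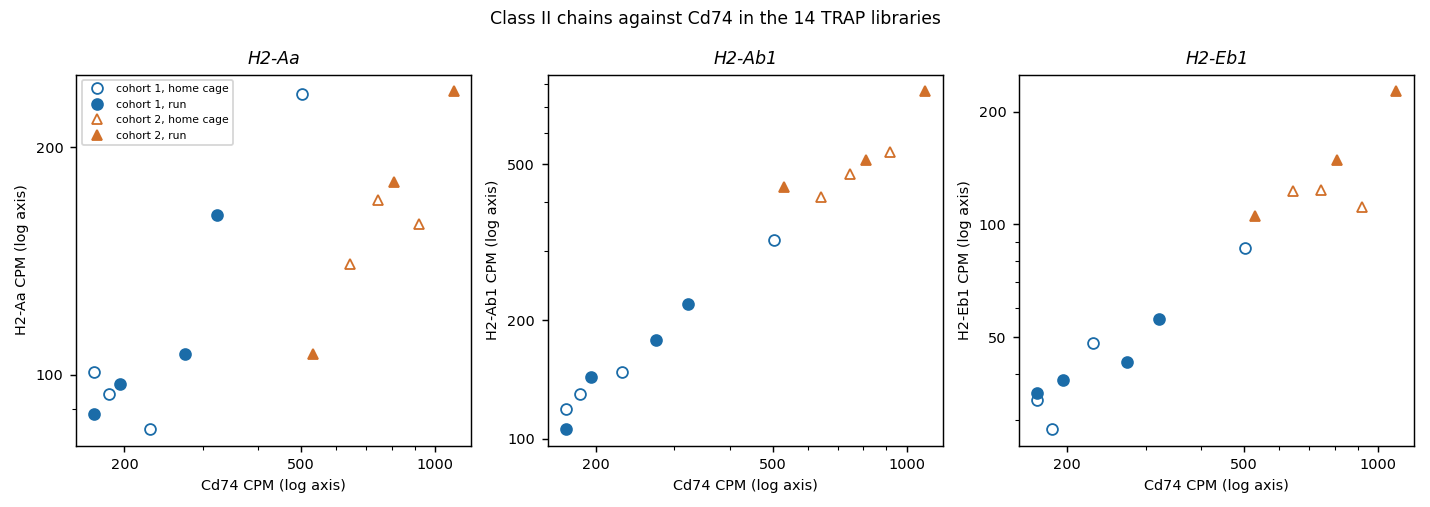
CPM of H2-Aa, H2-Ab1 and H2-Eb1 (vertical axes) against CPM of Cd74 (horizontal axes), all log axes, in the 14 TRAP libraries, with circles for cohort 1, triangles for cohort 2, open for home cage and filled for run. H2-Ab1 follows Cd74 from 106 to 767 CPM across both cohorts, whereas H2-Aa falls into a separate line for each cohort.

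No member passed the test between run and home cage. In TRAP, 0 of 10 members were called (edgeR), where 0.046% of 15203 genes were called, and 0 of 10 had an unadjusted p under 0.05, against 3.55% of genes. DESeq2 and limma-voom also called 0. The members' log2 folds had a median of 0.00, with 5 above and 5 below 0, and the smallest adjusted p was 0.999.

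By member, B2m in TRAP ran from 2183 through 5463 to 6047 CPM in the home cage and from 1849 through 4282 to 7330.3 after the run, and the groups overlapped. Its log2 fold was -0.02 ± 0.11, with a 95% interval of -0.24 to 0.19. For H2-K1 the ranges were 253 to 759.9 and 188 to 984 CPM, with a log2 fold of 0.10 ± 0.15 (95% interval -0.18 to 0.39). H2-D1 had 0.02 ± 0.14 (95% interval -0.24 to 0.29). For these 3 class I genes the highest upper bound was 0.39 on the log2 scale.

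Cd74 ran from 171 through 502 to 919 CPM in the home cage and from 171 through 322 to 1100.2 after the run. Its log2 fold was -0.06 ± 0.22 (95% interval -0.50 to 0.38). H2-Aa had -0.03 ± 0.22, H2-Ab1 0.04 ± 0.21 and H2-Eb1 0.08 ± 0.22, with intervals reaching from -0.45 to 0.51. Without female 1 of the home cage group in cohort 1, Cd74 was at 0.19 and H2-Aa at 0.22, still not called. The transporter subunits had -0.18 ± 0.19 for Tap1 and -0.12 ± 0.18 for Tap2. Ciita had 0.65 ± 0.66, with an interval from -0.65 to 1.94 that spans both directions.

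In lysate, 0 of 10 members were called (edgeR), where 0.0311% of 16091 genes were called, and 0 had an unadjusted p under 0.05, against 7.41% of genes. DESeq2 and limma-voom again called 0. H2-Aa had the value farthest from 0. It ran from 1.19 through 2.26 to 4.96 CPM in the home cage and from 1.23 through 1.69 to 2.36 after the run, a log2 fold of -0.49 ± 0.27 (edgeR adjusted p = 0.684). H2-Ab1 had -0.28 ± 0.21, H2-Eb1 0.22 ± 0.24 and Cd74 0.16 ± 0.18, so the class II genes did not share a sign there. B2m had -0.05 ± 0.11, H2-K1 0.04 ± 0.10 and H2-D1 0.10 ± 0.10. Tap1 had 0.25 ± 0.32, Tap2 -0.01 ± 0.14 and Ciita 0.20 ± 0.42.

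**Figure D5:**
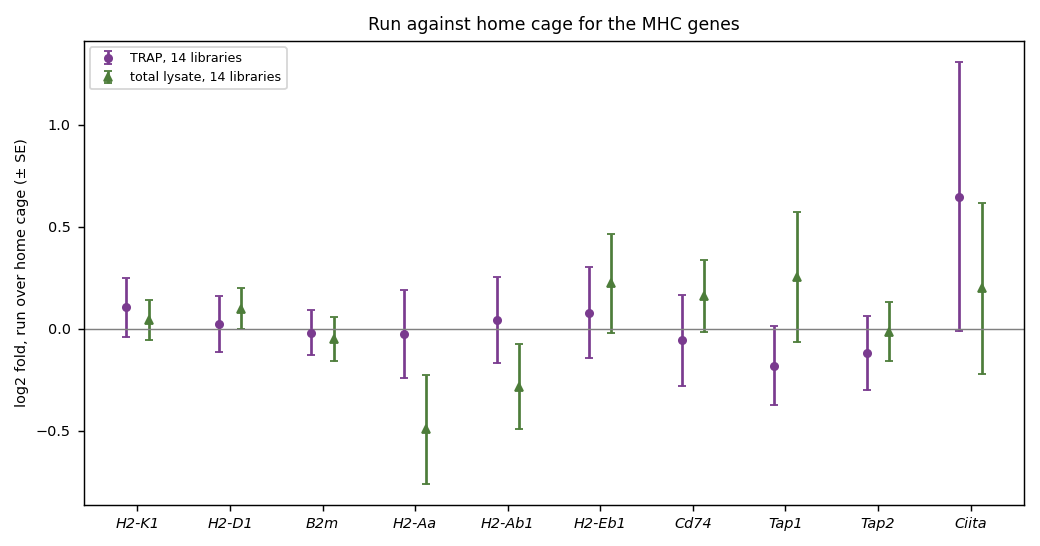
Log2 fold of run over home cage with its standard error for each MHC gene, in TRAP (circles, 14 libraries) and in total lysate (triangles, 14 libraries). Values lie between -0.49 (H2-Aa in lysate) and 0.65 (Ciita in TRAP), and none passed the test.

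The run effect did not differ detectably between the fractions or the cohorts for any member. For the difference between fractions 0 of 10 members were called (edgeR), where 0% of 16716 genes were called, and 0 had an unadjusted p under 0.05, against 3.92% of genes. DESeq2 and limma-voom called 0 members. The values ran from -0.42 ± 0.33 for Tap1 to 0.50 ± 0.39 for H2-Aa.

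For the difference between cohorts 0 of 10 members were called in TRAP (0% of 15203 genes, edgeR) and 0 of 10 in lysate (0% of 16091 genes, edgeR), and DESeq2 and limma-voom called 0 members in each. None had an unadjusted p under 0.05 either, against 4.28% of genes in TRAP and 2.04% in lysate. Within TRAP, 8 members, all but B2m and Ciita, were below 0 in cohort 1 and above 0 in cohort 2. They are grouped here by these signs alone. In cohort 1 their log2 folds ran from -0.39 ± 0.28 (Tap1) to -0.03 ± 0.18 (H2-K1). In cohort 2 the same 8 ran from 0.06 ± 0.25 (Cd74) to 0.40 ± 0.25 (H2-Eb1). The differences for these 8, cohort 2 less cohort 1, ran from 0.22 ± 0.46 to 0.58 ± 0.43, and none of these passed the test. B2m and Ciita went the other way. B2m had 0.03 ± 0.14 in cohort 1 and -0.09 ± 0.16 in cohort 2, a difference of -0.12 ± 0.23. Ciita had 1.65 ± 0.91 in cohort 1 and -0.74 ± 0.62 in cohort 2, a difference of -2.40 ± 1.16 (edgeR adjusted p = 0.914). Its TRAP levels in cohort 1 were 0.149, 0.530, 0.347 and 0.373 CPM in the home cage and 1.45, 1.91, 0.745 and 0.292 after the run, and the groups overlapped.

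The pathway lists gave no call either. In TRAP and in lysate, 0 genes of each of the 7 lists were called between run and home cage (edgeR). Of the interferon-induced genes, 22 were tested in TRAP, 11 above and 11 below 0, with a median log2 fold of -0.01. Of the class II loading genes 14 were tested there, with a median of -0.04, beside 0.00 over all genes. At an unadjusted p under 0.05 there was 1 gene each in the costimulation, interferon signalling and interferon-induced lists in TRAP and 0 in the other 4 lists, and in lysate 1 each in the lists of class I peptide supply, class II transcription and interferon signalling.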

How the data were processed

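Reads per gene were measured by poly(A) RNA-seq in 28 libraries, made with Nextera XT per the labels' protocols. The authors deposited 1 table of unnormalised read counts by gene symbol. The submitters' processing notes list DESeq2, featureCounts and STAR 2.7.7a, with GRCm38 as the build. The annotation, strand setting and handling of reads with several matches were not given in the sources. Columns that do not state a cohort match cohort 1 titles by condition, sex, number and fraction, and were assigned to it. Mitochondrially encoded genes were not analysed here.

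Counts were tested with the quasi-likelihood F test of edgeR 4.0.16 in R 4.3.3, with TMM scaling, filterByExpr, cohort as a covariate and Benjamini-Hochberg adjustment over all genes tested. A standard error is the log2 fold divided by the square root of F, and a 95% interval is the log2 fold with 1.96 standard errors to each side. CPM were computed with TMM factors over all 28 libraries, and RPKM from them with GENCODE exon lengths of GRCm38. No 2 libraries of a group were duplicates within sampling noise (smallest chi-square of a pair, divided by its degrees of freedom, 69.6). The labels do not say more on how samples were handled. P-values of the run comparisons within a fraction measure the spread between these mice. The main fits to both fractions had no mouse term, so their p-values measure the spread between libraries. The fits were tested on simulated data.

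TRAP and lysate libraries of a mouse are paired by the titles. Correlations of their deviations from the mean of each group and cohort ran from -0.02 to 0.08, with 0 of 14 mice over 0.1, and 9 of 14 had their highest correlation with their own partner. The mouse as a block was an alternative, as were RLE scaling, no filter, DESeq2 1.42.0, limma-voom (limma 3.58.1), a GC offset (lowess, span 0.3), no cohort term, each cohort alone, the home cage alone, and leaving out each mouse. Besides the members, up to 3 called genes with the largest folds were named per pathway list with a mean log2 CPM of 1 or more, and the 5 genes most like Cd74 and H2-K1. Markers other than these were named as defining markers, and Cd79b after its values were seen. The level of 1 marker is not reported here. Members and lists were chosen with earlier results of these data known.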

Additional observations from a re-analysis of the deposited data

Results flagged for a closer look

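The ratio of TRAP over lysate differed between the cohorts for H2-Ab1 by 1.37 on the log2 scale, and for H2-Aa by 1.04, by the test of the difference itself (edgeR adjusted p = 0.00217 and 0.0347). Both were higher in cohort 2. In the same test 20.5% of 16716 genes were called, so 2 of 10 members is near the share over all genes. The call of H2-Aa was lost with limma-voom (adjusted p = 0.235), without the 2 mice whose Y-linked levels went against their labels (adjusted p = 0.140) and on leaving out any 1 of 7 of the 14 mice. Single far libraries were looked for with Dixon's ratio at the 95% critical value. The ratio is the gap of the highest or lowest library to its neighbour over the range of the group. Of 40 sets of 7 libraries, 4 groups for each of the 10 members, 0 were marked. Each set pools both cohorts, which lay apart for most members, so its range holds the cohort difference. The ratio could therefore hardly mark a far library within a cohort. The usual rate of about 1 in 20 groups marked by chance, which is for libraries of 1 population, does not apply to such sets.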

How the results depend on the processing

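In all 25 alternatives run for the comparison of TRAP with lysate, 9 or 10 members were called higher, and the only call lost was that of Ciita, in 4 of them. The number of members called stayed at 0 in every alternative for the run effect in either fraction and for its difference between fractions or cohorts. For the difference of the ratio between cohorts, where 2 members were called, the count was 4 with DESeq2, 4 with the mouse as replicate block, 1 with limma-voom and 1 without the 2 mice whose Y-linked levels went against their labels, and it ran from 1 to 3 on leaving out each mouse, where B2m was called lower in cohort 2 in 2 of these fits. The member with a call in each of these was H2-Ab1. With limma-voom H2-Aa had an adjusted p of 0.235 at a difference of 1.02, and the cause was not tested. The mouse as replicate block, or the number shared by a run and a home cage mouse as replicate block, changed no other call of a member than these and that of Ciita. Run and home cage mice share only a number: their deviations correlated between -0.07 and 0.03 in TRAP and between -0.15 and 0.02 in lysate, over 0.1 in 0 of 7 pairs in each. Over all genes, DESeq2 called 39 between run and home cage in TRAP and 38 in lysate, where edgeR called 7 and 5, and 30 for the difference between fractions, where edgeR called 0. With edgeR the count in TRAP was 3 with the shared number as replicate block, 3 to 8 on leaving out each mouse and 0 in either cohort alone or without the cohort term. In lysate it was 8 with a GC offset, 0 to 9 on leaving out each mouse, and 0 in either cohort alone, without the cohort term, with the shared number as replicate block or without the 2 mice.

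Members with no call in a comparison changed sign between settings, and none of these values passed the test. Without the 2 mice whose Y-linked levels went against their labels these were, in TRAP -0.020 for H2-K1, -0.091 for H2-D1, 0.031 for B2m, -0.063 for H2-Ab1 and -0.035 for H2-Eb1, and for the difference between fractions -0.017 for H2-K1 and -0.058 for H2-Ab1. With a GC offset these were, in TRAP -0.013 for H2-D1 and 0.035 for B2m, and in lysate -0.022 for H2-K1 and 0.072 for B2m, and for the difference between fractions -0.046 for B2m. With limma-voom these were, in lysate 0.015 for Tap2 and -0.0086 for Ciita. Without the cohort term these were, in TRAP 0.0034 for B2m, 0.0016 for Cd74 and 0.027 for Tap2, and in lysate 0.0045 for Tap2, and for the difference between fractions 0.0030 for H2-D1, 0.040 for Tap2 and -0.038 for Ciita. In cohort 1 alone these were, in TRAP -0.027 for H2-K1, -0.11 for H2-D1, 0.027 for B2m, -0.13 for H2-Ab1 and -0.17 for H2-Eb1, and in lysate 0.0099 for B2m, and for the difference between fractions -0.076 for H2-K1. In cohort 2 alone these were, in TRAP 0.14 for H2-Aa, 0.056 for Cd74, 0.087 for Tap1, 0.13 for Tap2 and -0.74 for Ciita, and in lysate 0.020 for Tap2 and -0.039 for Ciita, and for the difference between fractions 0.11 for H2-D1, 0.085 for Tap2 and -0.74 for Ciita. On leaving out each mouse in turn, those that changed sign ran, in TRAP, for H2-Aa from -0.17 to 0.22, Cd74 from -0.19 to 0.19, H2-D1 from -0.040 to 0.11, H2-Ab1 from -0.097 to 0.27, Tap2 from -0.21 to 0.022, B2m from -0.079 to 0.039 and H2-Eb1 from -0.089 to 0.30. In lysate they ran for Tap2 from -0.060 to 0.088, B2m from -0.094 to 0.018 and Ciita from -0.052 to 0.33. For the difference between fractions they ran for H2-Eb1 from -0.33 to 0.052, H2-D1 from -0.16 to 0.038, B2m from -0.099 to 0.10, Tap2 from -0.22 to 0.012 and H2-K1 from -0.0099 to 0.15. For the difference of the ratio between cohorts Tap1 ran from -0.025 to 0.26. The GC offset used the 96% of genes with a known GC content. Depth limits Ciita most, which reached at most 2.96 CPM. The sets of 4 and 3 mice within a cohort are small, and the strand of the counting is not known.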
